A study of Mus musculus with 12 samples.

Results

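The libraries described here are the 6 of 12 in the series that were made from unstimulated mouse dendritic cells (DCs), 3 carrying a short hairpin RNA against *Ppargc1b* (sh*Ppargc1b*) and 3 a control hairpin (shControl). They were chosen by their labels, and all 18228 genes with enough counts were compared between them. The study asked what the transcriptional coactivator PGC-1β, the product of *Ppargc1b*, does in DCs. Marrow cells of female C57BL/6 mice were grown in GM-CSF and given the LMP retrovirus, which carries a human CD8 reporter, and cells bearing that reporter were sorted with beads before RNA was taken. The control hairpin was directed against firefly luciferase, and all 12 libraries came from transduced, sorted cells. The other 6 libraries had the same hairpins and 6 h of IFN-β, and they are used here only to ask whether an effect differed between treatments. As a model the cells have limits: the study used 1 *Ppargc1b* hairpin for most experiments and the labels name none, so effects of the hairpin other than on its target cannot be told apart, and GM-CSF cultures of marrow can hold dendritic and macrophage-like cells side by side. Nothing in the labels says that the 3 libraries of a group came from separate mice or cultures, so the p-values measure only the spread between these libraries. As in all bulk RNA, fewer cells of a type and less RNA per cell cannot be told apart.

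PGC-1β binds nuclear receptors and other transcription factors, above all the estrogen-related receptors, the nuclear respiratory factors and the PPARs, and is best known for raising the genes of mitochondrial respiration and fatty acid oxidation. In macrophages it is also known to work with PPARγ in the alternative activation program and to hold back inflammatory genes. DCs take up antigen in tissues, then mature: they lose phagocytic receptors, raise costimulatory ligands, chemokines and CCR7, and remodel matrix and cytoskeleton to reach lymph nodes.

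*Ppargc1b* (ENSMUSG00000033871) was counted at 33.4, 33.3 and 36.7 CPM (counts scaled to the size of each library) in the shControl libraries and at 18.6, 19.3 and 20.3 CPM in the sh*Ppargc1b* libraries, 56.3% of the control mean. The groups did not overlap (log2 fold change of -0.83 with a standard error of 0.10, adjusted p = 3.2e-05), although an exact permutation test of 3 against 3 libraries cannot go below p = 0.1, the value it gave. Here and below, folds, standard errors and p-values are from edgeR's quasi-likelihood test with Benjamini-Hochberg adjustment over all 18228 genes. The 6 libraries held 50.8 to 67.1 M counts, and the first principal component, with 45.6% of the variance, separated the hairpins. Between groups, 4295 genes passed an adjusted p of 0.05, which is 23.6% of those tested: 2266 genes were higher in sh*Ppargc1b* cells (12.4%) and 2029 lower (11.1%). The 3 values of each group did not overlap for 36.8% of all genes tested. Rises were larger than falls. Of the higher genes 478 rose at least 2-fold and of the lower genes 166 fell as much, and the median size of a called change was 0.46 (log2) upward and 0.33 downward. Many calls were small, since only 934 of the rises and 448 of the falls reached 1.5-fold.

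Markers of other cells moved with the hairpin in part, and their part in the results below was not tested. Dendritic markers summed to 4736 to 5580 CPM in control and 5529 to 6354 CPM in sh*Ppargc1b* libraries, with 5 of 12 higher and 0 lower. Macrophage markers summed to 13130 to 13750 CPM against 8619 to 9075 CPM, with 4 of 12 lower and 1 higher, and *Lyz2* (lysozyme), at 10713, 9965 and 10373 CPM against 6054, 5763 and 6186 CPM, made up most of the drop. The macrophage genes *Csf1r*, *Cd68*, *Adgre1* and *C1qa* were not called, with log2 fold changes between -0.02 and 0.09. Neutrophil markers summed to 697 to 930 CPM against 1156 to 1452 CPM, most of it the collagenase gene *Mmp8*. Of 11 tested, 3 were higher and 0 lower, with a median log2 fold change of 0.67 and a largest of 0.83. The members *Mpo*, *Elane*, *Ly6g* and *Retnlg* lay below 1 CPM in every library and were not called, with log2 fold changes from -1.46 to -0.42. The 3 rises became 1 to 3 without single unstimulated libraries and 7 with all genes of at least 1 count. Mast cell and basophil markers rose from 9.29 to 18.1 CPM in sum to 23 to 27.8 CPM, through *Gata2*, *Kit* and *Hdc*, 3 of 8 tested. In the erythroid and megakaryocyte list only *Pf4* rose, and the summed level went from 63.1 to 69.8 CPM to 112 to 120 CPM. Eosinophil (0 of 7 called), lymphocyte (0 of 3) and stromal markers (1 of 8) stayed at or under 71.4 CPM in sum in every library. Proliferation markers overlapped, at 367 to 478 CPM against 286 to 409 CPM, with 1 of 12 higher and 2 lower.

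The genes that rose most included many that code for secreted and surface proteins. *Fst* (ENSMUSG00000021765, GRCm38 chr13:114452290-114458951), which codes for follistatin, the secreted inhibitor of activin, led the ranking, from 20.6, 23.7 and 22.5 CPM to 113, 160 and 112 CPM. *Slc1a2* (ENSMUSG00000005089, chr2:102658659-102790784), a glutamate transporter best known from astrocytes, stood at 1.61, 1.31 and 1.37 CPM in control and at 7.62, 9.74 and 4.78 CPM in sh*Ppargc1b* libraries (log2 fold change 2.37, SE 0.31, adjusted p = 4.6e-05). The sh*Ppargc1b* libraries spread widely for this transporter, yet the lowest lay far above every control. *Rbp4*, the plasma carrier of retinol, rose from 6.56, 3.65 and 4.47 CPM to 22.7, 17.9 and 19.5 CPM (2.03, SE 0.19). *Itgb3*, the β3 integrin of osteopontin and vitronectin receptors, rose from 6.61, 6.45 and 5.04 CPM to 23.6, 21 and 21 CPM (1.85, SE 0.17). *Edn1* (ENSMUSG00000021367, chr13:42301476-42307990), the vasoconstrictor peptide endothelin-1, rose from 15.5, 10.8 and 11.3 CPM to 40.2, 37.3 and 41.5 CPM (1.66, SE 0.12, adjusted p = 1.6e-07). *Tnfsf4* (ENSMUSG00000026700, chr1:161395409-161418410), which codes for OX40L, the DC ligand that costimulates T cells, went from 9.99, 8.42 and 9.95 CPM to 34.9, 30.7 and 32.2 CPM (1.79, SE 0.09, adjusted p = 4.7e-09). None of these genes had a control library within the range of the sh*Ppargc1b* libraries, which the ranking required. The same list of 15 held *Mmp9* and *Clu*, the tight junction scaffold *Tjp1* (1.80), the TGF-β-induced *Pmepa1* (1.73), the transmembrane follistatin-domain gene *Tmeff1* (1.71) and *Dok7* (1.63), an adaptor of the muscle receptor kinase. It also held *Ccl12*, which stayed at or below 1.06 CPM in all 6 libraries. The mean level used for the ranking was taken over all 12 libraries, and *Slc1a2* and *Ccl12*, and *Gbp11* and *Rnf144b* among the falls, would have missed it over the 6 unstimulated libraries alone, with mean log2 CPM of 2.16, -0.87, 1.07 and 2.79 against the limit of 3.

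**Figure D1:**
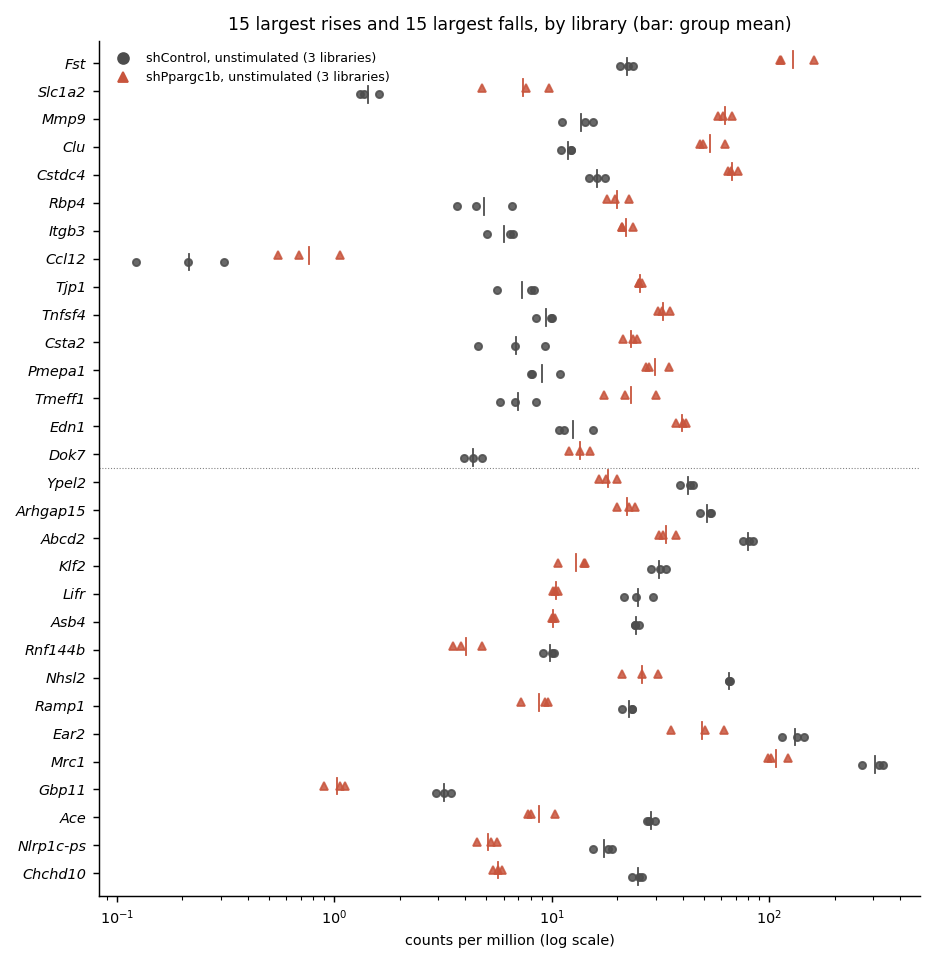
CPM on a log scale for the 15 top-ranked rises and the 15 top-ranked falls; circles are the 3 shControl and triangles the 3 sh*Ppargc1b* libraries, and short bars are group means. For all 30 genes the groups are apart, which the ranking required, and *Fst* at the top runs from 20.6 to 160 CPM.

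The genes that fell most included receptors, regulators of transcription and a lipid importer. *Mrc1* (ENSMUSG00000026712, chr2:14229392-14332057), the mannose receptor, had 319, 268 and 334 CPM in control and 102, 98.6 and 122 CPM in sh*Ppargc1b* libraries. *Klf2* (ENSMUSG00000055148, chr8:72319033-72321656), a transcription factor of quiescent lymphocytes and endothelium, fell from 31.4, 28.5 and 33.4 CPM to 14.2, 10.6 and 14.0 CPM (-1.26, SE 0.11, adjusted p = 8.3e-07). *Abcd2*, a peroxisomal importer of very long-chain fatty acids, fell from 83.8, 80.9 and 75.8 CPM to 37.4, 31.1 and 32.6 CPM (-1.25, SE 0.07). In each of these the lowest control library was at least 2 times the highest sh*Ppargc1b* library. *Ramp1*, which with the calcitonin-like receptor forms the receptor of CGRP, fell by 1.38 on the log2 scale, and the LIF receptor gene *Lifr* by 1.26. *Nhsl2* fell by 1.34, the ubiquitin ligase gene *Rnf144b* by 1.28, *Asb4* by 1.26, the Rac regulator *Arhgap15* by 1.22 and *Ypel2* by 1.22. The pseudogene *Nlrp1c-ps* fell from 18.1, 15.4 and 18.8 CPM to 5.59, 4.51 and 5.25 CPM, and its relative *Nlrp1b*, a pyroptosis sensor, by 0.86. Reads shared by these near-identical genes, and by *Ear2* (-1.42), a member of the eosinophil ribonuclease cluster, could have been lost or split in counting. *Chchd10*, *Ace* and *Gbp11* completed the list, and *Gbp11* was at or below 3.44 CPM in these 6 libraries.

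Families grouped by symbol differed widely in how many members changed. Of 49 families with at least 10 tested members, cystatins, MHC class I genes, matrix metalloproteinases and chemokines had the highest net share of rises, and Toll-like receptors, cathepsins, the guanylate-binding proteins, the leukocyte paired receptors and Krüppel-like factors the highest net share of falls. These are descriptions beside the background of 12.4% and 11.1%, and the median log2 fold change of all genes was -0.005.

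**Figure D2:**
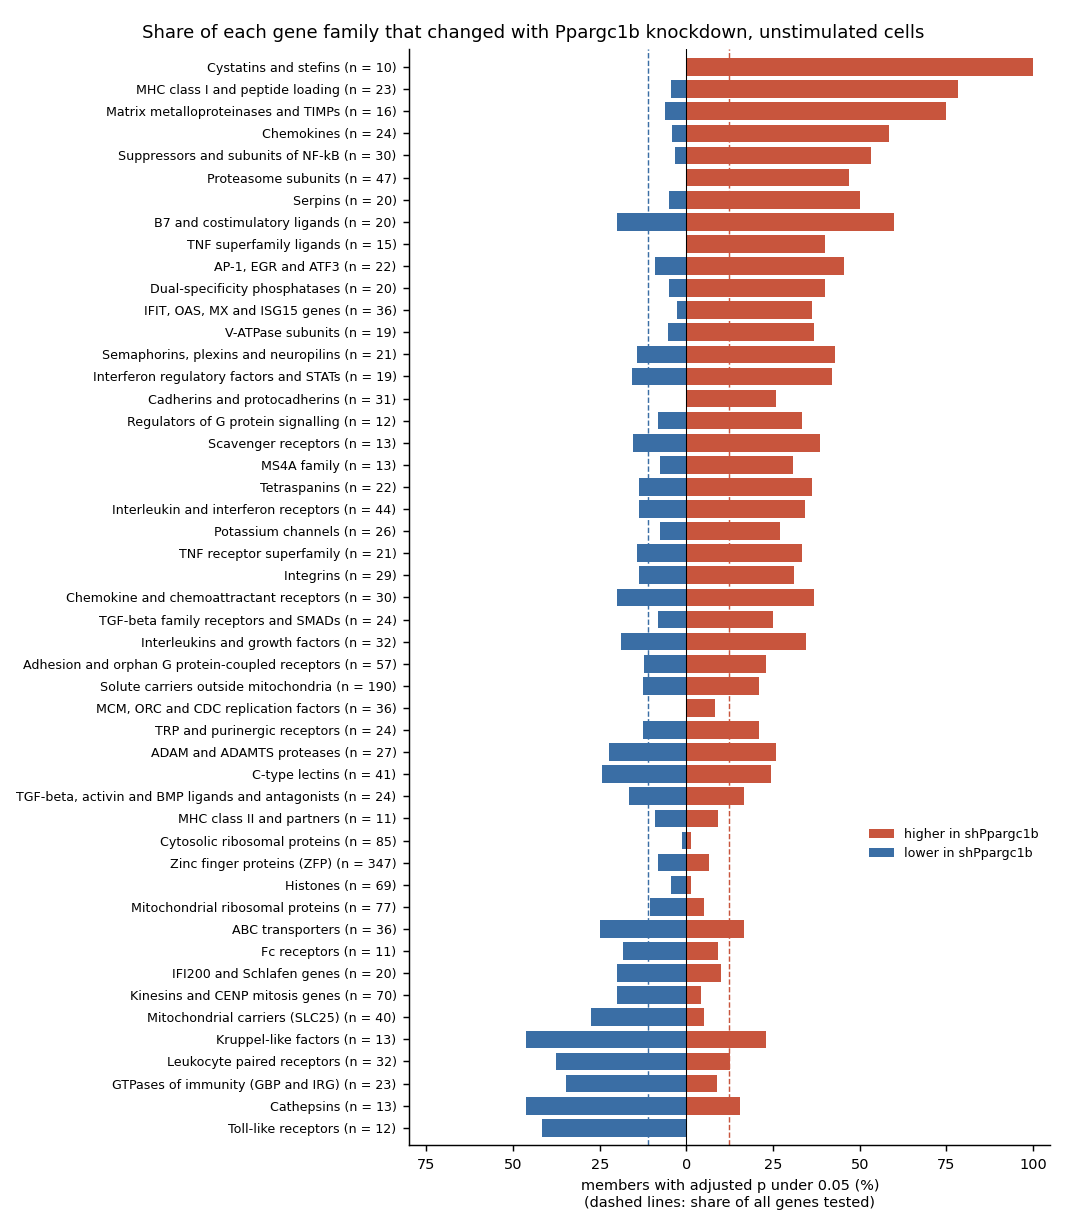
Share of tested members of each family that were higher (right) or lower (left) in sh*Ppargc1b* cells at an adjusted p of 0.05, with dashed lines at 12.4% and 11.1%, the shares of all 18228 genes. All 10 cystatins and stefins were higher, and 0 of 12 Toll-like receptors were.

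Protease inhibitors and matrix proteases rose together. Cystatins and stefins block cysteine proteases such as the cathepsins, and all 10 that were tested rose, with a median log2 fold change of 1.66 and non-overlapping groups in each. *Cstdc4* (ENSMUSG00000079597, chr16:36184212-36188111) stood at 17.5, 14.9 and 16.1 CPM in control and at 71.6, 64.7 and 66.5 CPM in sh*Ppargc1b* libraries (2.07, SE 0.08, adjusted p = 1.0e-09), the smallest p of any rise. Its neighbours in the stefin cluster followed at lower levels: *Cstdc5* rose by 2.03, *Stfa1* by 1.96, *Stfa2l1* by 1.89, *Csta2* by 1.76, *Stfa2* by 1.29 and *Stfa3* by 1.27. These genes are near-identical copies whose unique reads may stand for more than 1 of them, so their number is uncertain. The members with sequences of their own rose as well. *Cst7*, cystatin F, went from 0.77, 1.29 and 1.03 CPM to 3.24, 2.53 and 3.42 CPM (1.57, SE 0.19). *Cst3*, cystatin C, went from 470, 485 and 519 CPM to 739, 696 and 735 CPM (0.56, SE 0.06), and *Cstb* rose by only 0.23. Of 13 cathepsins, 6 were lower and 2 higher. *Ctsc*, which activates granule serine proteases, fell from 1294, 1276 and 1293 CPM to 862, 852 and 826 CPM (-0.60, SE 0.04, adjusted p = 7.9e-08). *Ctsf* fell by 0.64, *Ctsk* by 0.60, *Ctse* by 0.57 and *Ctss*, the protease that trims the invariant chain, by 0.16, whereas *Ctsz* (0.33) and *Ctsb* (0.23) rose.

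Of 16 matrix metalloproteinases and their TIMP inhibitors, 12 rose and 1 fell, with a median of 0.75. *Mmp13*, a collagenase, had 600, 605 and 462 CPM in control and 1409, 1325 and 1007 CPM in sh*Ppargc1b* libraries (1.17, SE 0.14, adjusted p = 2.2e-05). *Mmp12*, the macrophage elastase, was among the most abundant transcripts and went from 10522, 10326 and 9417 CPM to 14553, 16800 and 14769 CPM (0.61, SE 0.08). *Mmp2*, a gelatinase, went from 13.2, 10.7 and 12.8 CPM to 28.0, 20.2 and 23.9 CPM. In all of them the groups were apart, so the rise covered enzymes that differ by orders of magnitude in level. *Mmp10* rose by 1.62 but stayed near or below 1 CPM. Among the inhibitors, *Timp3* (1.59) and *Timp1* (1.32) rose, and *Timp2* fell from 48.4, 43.6 and 45.1 CPM to 27.7, 26.8 and 25.2 CPM (-0.78, SE 0.06, adjusted p = 1.8e-07). Serpins, which block serine proteases, had 10 of 20 higher and 1 lower. *Serpine2* (protease nexin-1) rose from 1.38, 1.93 and 1.70 CPM to 9.22, 7.3 and 5.8 CPM (2.14, SE 0.21), *Serping1* (the C1 inhibitor) by 1.58, *Serpinb2*, a plasminogen activator inhibitor, from 34.1, 44.2 and 45.5 CPM to 83.5, 120 and 89.7 CPM, *Serpinb9b* by 0.74 and *Serpinb8* by 0.71, and the lower member was *Serpinb6a* (-0.24). The ADAM and ADAMTS proteases went both ways, 7 of 27 higher and 6 lower, with *Adamts9* (1.92) and *Adamts1* (1.65) leading and the abundant *Adam8* at 638, 619 and 583 CPM against 995, 943 and 891 CPM (0.62).

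The promoters of 3 of the risen metalloproteinases are shown because each holds the letters of an AP-1 element, TGANTCA with N for any base, within 150 bases of its start. In GRCm38.p6 (RefSeq starts) all 3 lie on the plus strand of chromosome 9, at chr9:7502192-7502341 for *Mmp10*, chr9:7347224-7347373 for *Mmp12*, of which this is 1 of 2 starts, and chr9:7272364-7272513 for *Mmp13*. The AP-1 letters, in capitals, lie 57 to 63, 38 to 44 and 29 to 35 bases before the start, and the capitals near the beginning of the *Mmp13* window are TTCNNTTTC, the core letters of the interferon-stimulated response element.
Mmp10: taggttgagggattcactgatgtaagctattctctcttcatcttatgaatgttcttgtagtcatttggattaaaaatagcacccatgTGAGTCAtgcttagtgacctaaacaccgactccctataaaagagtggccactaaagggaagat
Mmp12: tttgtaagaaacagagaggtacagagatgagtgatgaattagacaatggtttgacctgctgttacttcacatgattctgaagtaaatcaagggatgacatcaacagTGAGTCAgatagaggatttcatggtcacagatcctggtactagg
Mmp13: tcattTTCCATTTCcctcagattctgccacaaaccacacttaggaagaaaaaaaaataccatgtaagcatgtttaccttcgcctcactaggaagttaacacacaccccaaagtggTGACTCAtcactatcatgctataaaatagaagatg
Over the 10399 tested protein-coding genes with a RefSeq window, on either strand, 3.66% held TGANTCA. The share was 6.19% for higher genes (97 of 1566), 3.99% for lower genes (56 of 1403) and 3.07% for genes not called, and 6.99% among genes at least 2-fold higher. GCGCATGC, the letters of the nuclear respiratory factor NRF1, stood before 4.01% of all these genes, 2.68% of the higher, 2.99% of the lower and 4.48% of those not called. The letters TNAAGGTCA of the estrogen-related receptors were rare throughout, at 0.375% of all, 0.447% of higher and 0.428% of lower genes, and GAGGAAGT, the PU.1 letters, stood at 2.26%, 3.19% and 2.57%. Of all 32851 RefSeq windows, 4.24% held the AP-1 letters. A gene with several starts counted once if any window matched, and genes had 1.27 windows on average. These 5 windows were chosen after values and matches were seen, and a match describes letters and not a bound site.

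Chemokines were higher in 14 of 24 cases and lower in 1, with a median of 0.53. *Cxcl3*, a neutrophil attractant, rose from 229, 294 and 264 CPM to 646, 743 and 594 CPM (1.33, SE 0.11, adjusted p = 5.9e-07). *Cx3cl1*, the membrane-tethered fractalkine, rose from 16.9, 13.8 and 15 CPM to 46.7, 42.5 and 43.6 CPM (1.54, SE 0.07, adjusted p = 1.9e-09). *Ccl5*, which draws T cells, rose from 22.7, 22.6 and 22.2 CPM to 70.1, 64.1 and 52.8 CPM (1.47, SE 0.10). The groups were apart for all 3. *Ccl24* (1.68) and *Cxcl5* (1.26) rose at levels below 6 CPM. The abundant *Ccl6* was the single member that fell, from 5029, 5477 and 5362 CPM to 3541, 3912 and 3828 CPM (-0.49, SE 0.05), and its neighbour *Ccl9* rose by 0.20. The window before the *Cxcl3* start (GRCm38.p6 chr5:90785951-90786100, plus strand) is printed because it holds GGGANTTTC, the first letters of an NF-κB element, in capitals, 65 to 73 bases before the start, as a window of 0.683% of all genes with a window did, and of 0.766% of higher genes.
Cxcl3: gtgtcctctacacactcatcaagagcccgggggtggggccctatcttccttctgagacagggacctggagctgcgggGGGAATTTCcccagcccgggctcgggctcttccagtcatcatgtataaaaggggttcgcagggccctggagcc
Chemoattractant receptors split, 11 of 30 higher and 6 lower. *S1pr3*, a receptor for sphingosine-1-phosphate, which guides exit from tissues, rose from 7.84, 8.19 and 6.81 CPM to 22.2, 22.1 and 20.8 CPM (1.51, SE 0.09), and *S1pr1* from 4.95, 5.90 and 5.04 CPM to 17.5, 15.6 and 11.7 CPM (1.49, SE 0.13). *Ccr4* (1.32) and *Ccr6* (1.34) rose below 2 CPM. *Ccr2*, the CCL2 receptor of inflammatory monocytes, fell from 791, 605 and 770 CPM to 420, 326 and 410 CPM (-0.91, SE 0.15, adjusted p = 3.1e-04) and the complement receptor *C3ar1* by 0.40.

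**Figure D3:**
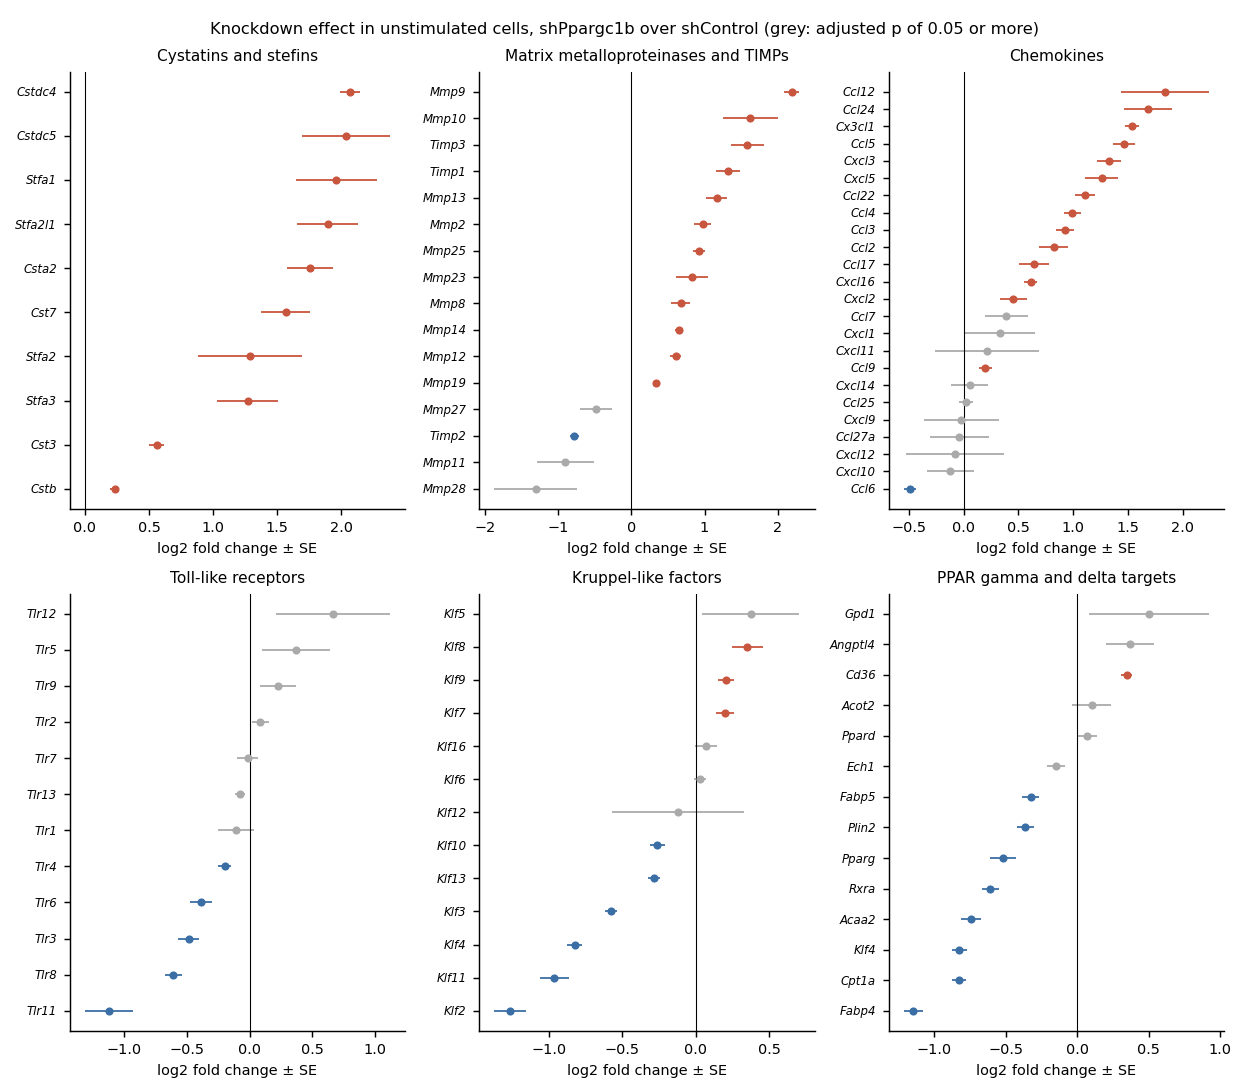
Log2 fold change with its standard error for every tested member of 6 gene lists, sh*Ppargc1b* over shControl; red is higher, blue lower and grey not past an adjusted p of 0.05. All 10 cystatins lie to the right of 0, and the blue points reach -1.26 for *Klf2* and -1.14 for *Fabp4*.

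Growth factors and cytokines rose in 11 of 32 cases and fell in 6. *Csf1*, the macrophage growth factor, went from 186, 185 and 165 CPM to 372, 352 and 342 CPM (0.99, SE 0.06, adjusted p = 1.6e-08). The EGF receptor ligand *Hbegf* rose from 18.1, 17.3 and 15.8 CPM to 43.2, 42.5 and 39.7 CPM (1.30, SE 0.12), and the platelet-derived *Pdgfa* from 12.2, 16.3 and 13.9 CPM to 33.4, 38.2 and 33.5 CPM (1.31, SE 0.12). All of these groups were apart. *Vegfc*, the lymphatic growth factor (2.30), *Areg* (2.04) and *Ereg* (1.23) rose but stayed below 2 CPM, and the alarmin *Il33* rose by 1.21. For *Vegfa* the groups overlapped at 422 to 536 CPM against 442 to 580 CPM (0.04, SE 0.12, adjusted p = 0.86). Among cytokine receptors, 15 of 44 rose and 6 fell. *Il2ra* (CD25) rose from 20.6, 23.9 and 22.1 CPM to 49.7, 59.6 and 58.8 CPM (1.34, SE 0.08, adjusted p = 2.3e-08), *Il23r* by 1.55, and *Il1rn*, the secreted IL-1 receptor antagonist, from 865, 903 and 771 CPM to 1646, 1748 and 1526 CPM (0.95, SE 0.09). *Il27ra* fell by 0.93, and *Csf2rb*, the signalling chain of the GM-CSF receptor, rose by 0.25.

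In the TNF superfamily, 6 of 15 ligands rose and 0 fell. *Tnf* itself rose from 83.8, 83.4 and 86.9 CPM to 142, 153 and 162 CPM (0.85, SE 0.07, adjusted p = 5.4e-07), with *Tnfsf15* (0.57) and *Tnfsf9* (0.40) behind it. *Tnfsf18* (1.18) and *Ltb* (0.94) rose at or below 1.45 CPM, and the groups overlapped for *Ltb*. Of 21 receptors 7 rose and 3 fell. *Tnfrsf9* (4-1BB) rose from 385, 472 and 342 CPM to 915, 1008 and 715 CPM (1.14, SE 0.15, adjusted p = 5.9e-05), *Tnfrsf12a* by 0.82 and *Cd40* by 0.76, and *Tnfrsf11b*, osteoprotegerin, rose by 2.32 below 1 CPM. *Tnfrsf14* and *Tnfrsf21* each fell by 0.44 and *Tnfrsf1b*, a TNF receptor, by 0.22.

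In the TGF-β family the largest rises were in the activin branch. *Inhba* (ENSMUSG00000041324, chr13:16011851-16031621), the activin A subunit, rose from 459, 466 and 385 CPM to 1319, 1463 and 1194 CPM (1.60, SE 0.12, adjusted p = 2.9e-07), and its antagonist *Fst* rose with it. The related antagonists *Fstl3* (-1.18, at or below 1.03 CPM) and *Fstl1* (-0.62) fell, and the largest fall called was *Bmp8a* (-1.65), at or below 0.328 CPM. Across the 24 ligands and antagonists 4 rose and 4 fell, and the median was 0.00. The falls were not firm: without any 1 of the 6 libraries only 1 or 2 of these genes were lower. Of 24 receptors and SMADs 6 rose and 2 fell: the inhibitory *Smad7* rose from 19.1, 19.9 and 16.3 CPM to 32.4, 32.4 and 28.3 CPM (0.75, SE 0.13), *Bmpr1a* by 0.63 and *Tgfbr1* by 0.36, while *Tgfbr3* (betaglycan) fell by 1.06 and *Tgfbr2* by 0.47.

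Adhesion and guidance molecules rose more often than they fell. Of 31 cadherins and protocadherins 8 rose and 0 fell, the most abundant being E-cadherin, *Cdh1*, at 55.6 to 62.4 CPM in control and up to 154 CPM in sh*Ppargc1b* libraries without overlap (1.24, SE 0.14, adjusted p = 1.0e-05). *Pcdh7* rose by 0.60, and most of the rest, such as *Cdh17* (1.62) and *Cdh5* (1.06), stayed below 2 CPM. Leaving out any 1 of the 6 libraries left 3 to 5 cadherins higher. Integrins had 9 of 29 higher and 4 lower, with *Itgb8* (1.27), *Itga6* (0.46) and the DC integrin *Itgax* (0.26) among the rises and *Itgb7*, a subunit of gut-homing receptors, falling from 20.8, 27.2 and 25.8 CPM to 11.6, 9.90 and 11.3 CPM (-1.17, SE 0.12). Among semaphorins, plexins and neuropilins 9 of 21 rose and 3 fell. *Sema7a* rose from 18.3, 16.4 and 17.2 CPM to 50.5, 39.5 and 41.8 CPM (1.34, SE 0.08, adjusted p = 2.4e-08), and *Sema3a*, a repulsive guidance cue, from 0.54, 0.75 and 0.73 CPM to 3.13, 3.48 and 3.38 CPM (2.30, SE 0.16). The receptor *Plxnb2* fell by 0.86. In the matrix itself 8 of 24 genes rose and 4 fell. *Spp1*, osteopontin, rose from 464, 531 and 449 CPM to 1279, 1419 and 1389 CPM (1.5, SE 0.08, adjusted p = 9.9e-09) and tenascin C, *Tnc*, by 1.19. Versican, *Vcan* (ENSMUSG00000021614, chr13:89655312-89742509), fell from 286, 302 and 325 CPM to 157, 160 and 156 CPM (-0.95, SE 0.05, adjusted p = 4.7e-09), and fibronectin, *Fn1*, from 5776, 6044 and 5186 CPM to 3314, 3799 and 3114 CPM (-0.73, SE 0.08). Of 30 cytoskeletal genes of migration 10 rose and 8 fell, among them the actin bundler of mature DCs, *Fscn1* (0.99), *Marcksl1* (0.72) and *Arhgef6* (-0.59). Tetraspanins had 8 of 22 higher and 3 lower, led by *Tspan13* (1.33).

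Receptors that sense microbes or set thresholds of myeloid activation fell more often than they rose. No Toll-like receptor rose and 5 of 12 fell. *Tlr8* fell from 179, 195 and 194 CPM to 119, 136 and 117 CPM (-0.61, SE 0.07, adjusted p = 8.2e-06), *Tlr11* by 1.12, the double-stranded RNA sensor *Tlr3* by 0.49, *Tlr6* by 0.39, and *Tlr4*, the LPS receptor, from 346, 385 and 400 CPM to 317, 344 and 325 CPM (-0.20, SE 0.05, adjusted p = 0.013). The groups overlapped for *Tlr2*, *Tlr7*, *Tlr9*, *Tlr1*, *Tlr5* and *Tlr12*, with log2 fold changes from -0.11 to 0.66, and *Tlr13* was not called (-0.07). Of 32 leukocyte paired receptors, which pair activating and inhibitory forms, 12 fell and 4 rose. *Cd300lg* (ENSMUSG00000017309, chr11:102041509-102055620) fell from 6.68, 5.55 and 8.71 CPM to 0.935, 0.614 and 1.42 CPM (-2.80, SE 0.25, adjusted p = 1.4e-06). *Lilra6* fell from 55.5, 44.1 and 56.6 CPM to 24.0, 19.7 and 25.4 CPM (-1.17, SE 0.11), *Pira13* by 1.30, *Pira12* by 1.09 and *Pira1* by 0.58, although these PIR genes are near-copies of each other. *Sirpa*, the receptor of CD47, fell by 0.24 and *Treml2* rose by 0.64. C-type lectins were split, 10 of 41 higher and 10 lower. The dectin gene *Clec7a* rose from 1340, 1346 and 1374 CPM to 1508, 1807 and 1644 CPM (0.29, SE 0.05) and *Colec12* by 0.96, while *Clec4a3* fell by 1 on the log2 scale and *Klra17* by 1.06. Scavenger receptors had 5 of 13 higher and 2 lower, with the oxidised-LDL receptor *Olr1* rising from 188, 175 and 163 CPM to 279, 323 and 275 CPM (0.74, SE 0.08) and *Marco* falling by 1.11. Of 11 Fc receptor genes *Fcgrt*, the neonatal Fc receptor (-0.95), and *Fcgr4* (-0.76) fell and *Fcrlb* rose. Of 8 Siglecs 1, *Mag*, fell. In the MS4A family *Ms4a8a* (ENSMUSG00000024730, chr19:11067471-11081102) fell from 5.93, 5.75 and 6.37 CPM to 0.57, 0.88 and 1.22 CPM (-2.73, SE 0.26), while *Ms4a7* (0.99) and 3 others of the 13 rose.

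Among antigen presentation genes, those of class I were called more often than those of class II. Of 23 genes of MHC class I and its peptide loading, 18 rose and 1 fell, but by little, with a median of 0.27. *B2m*, the light chain of every class I molecule, went from 4499, 4746 and 4629 CPM to 5857, 5770 and 5160 CPM (0.27, SE 0.05, adjusted p = 0.0011). *H2-D1* went from 956, 1006 and 943 CPM to 1299, 1282 and 1109 CPM (0.34, SE 0.06), and the nonclassical *H2-Q6* from 76.6, 90.7 and 79.4 CPM to 148, 142 and 117 CPM (0.72, SE 0.09). *H2-K2* was the member that fell (-0.25), and H2 genes are similar enough for reads to be shared. The *B2m* window (GRCm38.p6 chr2:122147537-122147686, plus strand) is shown because it holds 2 of the motifs searched, both on the minus strand and in capitals: the interferon-stimulated letters 131 to 139 bases before the start and, next, the NF-κB letters 117 to 125 bases before it.
B2m: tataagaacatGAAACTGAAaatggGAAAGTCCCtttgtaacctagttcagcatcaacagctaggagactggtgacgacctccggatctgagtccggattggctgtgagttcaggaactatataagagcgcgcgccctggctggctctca
Letters of the interferon-stimulated element stood in a window of 4.29% of all genes with a window, 3.90% of higher and 5.13% of lower genes. MHC class II went without calls except for *H2-Oa* (0.88) and *H2-DMa* (-0.35), 2 of 11. The median of these 11 was 0.13, and with all genes of at least 1 count 4 were higher and 2 lower. Whether the 2 classes differed was not tested. The class II chain *H2-Aa* had 1133, 938 and 1051 CPM against 1279, 1075 and 1139 CPM (0.16, SE 0.08, adjusted p = 0.20) and the invariant chain *Cd74* 0.17 (adjusted p = 0.21), and neither passed the test. Proteasome subunits, which make class I peptides, rose in 22 of 47 cases and fell in 0. Their median was 0.12, and *Psmd11*, at 71.6, 70.4 and 76.9 CPM against 83.8, 84.0 and 89.2 CPM (0.23, SE 0.04), was typical.

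Maturation genes moved almost uniformly. Of 27 genes of mature migratory DCs 24 rose and 0 fell, with a median of 0.66 and non-overlapping groups in 25. This list, like the others, was chosen with earlier results of these data known, so the count is only a description. *Cacnb3* rose from 29.9, 35.8 and 35.2 CPM to 74.1, 70.3 and 72.5 CPM (1.10, SE 0.10), the surface maturation marker *Cd83* from 26.9, 23.7 and 26.3 CPM to 58.4, 47.4 and 51.5 CPM (1.03, SE 0.10), and *Ccl22*, the attractant of CCR4-bearing T cells, from 432, 395 and 414 CPM to 946, 815 and 919 CPM (1.11, SE 0.09). Of 20 B7 and costimulatory ligands 12 rose and 4 fell, including *Havcr2* (TIM-3, 1.06), *Cd276* (0.98) and *Slamf7*, which went from 112, 103 and 103 CPM to 173, 154 and 157 CPM (0.60, SE 0.05). Alternative activation markers did not move as a list, with 7 of 19 higher and 6 lower. *Retnla* (-1.68), *Mrc1*, *F13a1* (-0.86) and *Fn1* fell, and *Ccl24*, *Ccl22* and *Chil3* (0.30) rose. *Arg1* fell from 1006, 1427 and 1091 CPM to 667, 865 and 621 CPM (-0.71, SE 0.18, adjusted p = 0.0079) and *Nos2*, the nitric oxide synthase that competes with it for arginine, rose from 54.1, 51.8 and 34.5 CPM to 111, 78 and 82.7 CPM (0.95, SE 0.18, adjusted p = 0.0012). Oxidase subunits *Cybb* (-0.27) and *Ncf1* (-0.31) fell. In that list of NADPH oxidase and nitric oxide genes 6 of 12 rose and 4 fell.

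Transcription factors and signalling brakes mostly changed by under 1 on the log2 scale. Of 30 NF-κB subunits and regulators 16 rose and 1, *Ikbke* (-0.19), fell. *Tnfaip3* (A20), the deubiquitinase that limits the pathway, rose from 187, 170 and 164 CPM to 282, 242 and 247 CPM (0.57, SE 0.06), *Traf1* by 0.51, *Map3k14* (NIK) by 0.46, *Relb* by 0.42 and *Rel* by 0.40. The AP-1, EGR and NR4A genes rose in 10 of 22 cases and fell in 2: *Nr4a3* rose from 88.5, 80.2 and 87.5 CPM to 182, 142 and 166 CPM (0.94, SE 0.09), *Fosl1* by 0.83, *Egr1* by 0.65 and *Atf3* by 0.34. The macrophage factor *Maf* fell from 39.1, 47.9 and 47.0 CPM to 24.6, 23.9 and 22.3 CPM (-0.92, SE 0.08). Krüppel-like factors fell in 6 of 13 cases and rose in 3. Among the falls were *Klf11* by 0.96, *Klf4* from 59.2, 57.9 and 62.2 CPM to 33.9, 34.8 and 32.6 CPM (-0.82, SE 0.05, adjusted p = 4.9e-08), *Klf3* by 0.58 and *Klf13* by 0.28. Of 19 interferon regulatory factors and STATs 8 rose and 3 fell, with *Stat4*, the transducer of IL-12, at 11.2, 9.81 and 9.65 CPM against 22.5, 19.4 and 18.9 CPM (0.99, SE 0.10), *Irf4* at 0.48 and *Irf8* at 0.37. Of 30 myeloid lineage factors 10 rose and 7 fell. The aryl hydrocarbon receptor, *Ahr*, rose from 64.0, 60.9 and 63.5 CPM to 140, 138 and 133 CPM (1.12, SE 0.07, adjusted p = 4.9e-08) and the DC factor *Zbtb46* by 0.61, whereas *Zeb2* fell by 0.20. Among the MAP kinase phosphatases of the DUSP family 8 of 20 rose and 1 fell. *Dusp4* rose from 2.94, 2.41 and 2.75 CPM to 11.9, 10.5 and 9.58 CPM (1.98, SE 0.14, adjusted p = 1.8e-07), *Dusp5* by 0.96 and *Dusp6* by 0.82. Regulators of G protein signalling rose in 4 of 12 cases, *Rgs16* by 1.37 and *Rgs1* by 0.97, and 1 fell. In the SOCS genes *Socs3* (0.52) and *Socs2* (0.22) rose and *Socs6* (-0.57) fell, 3 of 8.

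The interferon-induced families did not move as 1 group. Of 36 IFIT, OAS, MX and related genes 13 rose and 1, *Oas1c*, fell. *Ifitm1* rose from 11.4, 15.1 and 17.4 CPM to 31.6, 30.7 and 36.2 CPM (1.17, SE 0.14), *Ifi44* from 22.4, 24.6 and 17.9 CPM to 35.1, 36.6 and 42.7 CPM (0.82, SE 0.09), and the tethering factor *Bst2* from 32.0, 34.9 and 31.5 CPM to 49.5, 49.8 and 48.2 CPM (0.58, SE 0.05). For the classical members *Rsad2* (0.23) and *Ifit2* (0.15) the groups overlapped. The control libraries spread for this list: without shControl replicate 2, 26 of the 36 were higher. Replicate numbers here and below follow the order of the libraries in the series. They are not from the labels, and equal numbers do not mark matched libraries. Guanylate-binding and immunity-related GTPases, which attack pathogen vacuoles, went down instead, with 8 of 23 lower and 2, *Gbp5* (0.33) and *Irgm1* (0.24), higher. *Gvin3* fell from 218, 230 and 255 CPM to 115, 110 and 126 CPM (-1, SE 0.08, adjusted p = 3.4e-07), *Gbp8* by 0.85, *Gm4951* by 0.55 and *Gbp9* by 0.52, and these tandem genes too can share reads. Of 20 IFI200 and Schlafen genes 2 rose and 4 fell, but without shControl replicate 2 there were 8 higher and 3 lower.

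The same families in the IFN-β libraries differed in their counts. With IFN-β 20 of the 23 GTPases and 11 of the 36 IFIT, OAS and MX genes were lower in sh*Ppargc1b* cells and 0 and 1 were higher, beside 12.7% lower and 11.5% higher of all genes. The test of the difference itself, the knockdown effect with IFN-β minus that without, passed for 133 genes (0.73%), 11 positive and 122 negative. Of the lists above it passed for 6 of 36 IFIT, OAS and MX genes, 2 of 23 GTPases, 4 of 23 MHC class I genes, 4 of 20 costimulatory ligands and 4 of 27 maturation genes. *Gbp5* rose by 0.33 without and fell by 0.33 with IFN-β (difference -0.66, SE 0.09, adjusted p = 0.0037). *Ifi44* rose by 0.82 without and had -0.03 with it (difference -0.85, SE 0.12, adjusted p = 0.0062). *Tap1*, the peptide pump, had 0.26 and -0.12 (difference -0.38, adjusted p = 0.026) and *Nlrc5*, the class I transactivator, 0.23 and -0.16 (difference -0.40, adjusted p = 0.033). Among genes that passed this test and were called in unstimulated cells, the largest differences were those of *Il12rb1* (1.41 without and -0.07 with IFN-β), *Flt4* (1.33 and -0.02), *Apol9b* (1.04 and -0.21), *Heatr9* (1.17 and 0.06) and *Etl4* (-0.78 and 0.30). The count of 133 went from 36, without shControl replicate 3, to 271, without IFN-β sh*Ppargc1b* replicate 2. Of the genes just named, *Gbp5*, *Ifi44* and *Apol9b* passed without any 1 of the 12 libraries, and the others lost the call without at least 1. Of the genes called in unstimulated cells, 2090 of 2266 higher and 1953 of 2029 lower had the same sign with IFN-β. The share with the same sign among all genes tested was not counted.

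**Figure D4:**
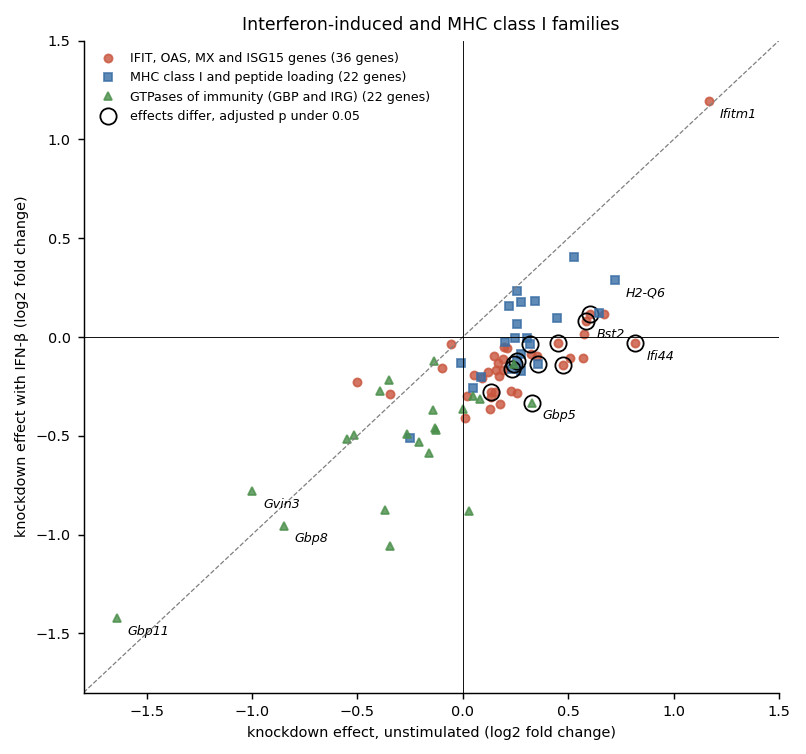
Knockdown effect (log2 fold change, sh*Ppargc1b* over shControl) in unstimulated cells on the x axis and with IFN-β on the y axis for 36 IFIT, OAS, MX and ISG15 genes, 22 of 23 MHC class I genes and 22 of 23 GTPases; a gene with a standard error over 0.5 in either is not drawn, and the dashed line marks equal effects. Rings mark genes whose 2 effects differed, all of them below the line, and *Ifitm1* lies close to it at 1.17.

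Falls prevailed among PPAR targets and rises among antioxidant genes, while lipid synthesis and efflux went both ways. Of 14 PPARγ and PPARδ targets 8 fell and 1, the scavenger receptor *Cd36* (0.35), rose, with a median of -0.34. *Fabp4*, a fatty acid chaperone, fell from 51.8, 51.1 and 49.6 CPM to 24.8, 22.1 and 22.1 CPM (-1.14, SE 0.07, adjusted p = 2.9e-08), the β-oxidation thiolase *Acaa2* from 21.3, 22.0 and 24.5 CPM to 13, 13.6 and 13.9 CPM (-0.74, SE 0.07), and *Plin2* by 0.36. *Pparg* itself fell from 16.1, 14.8 and 16.2 CPM to 11.2, 10.0 and 11.6 CPM (-0.52, SE 0.09) and its partner *Rxra* by 0.61, whereas *Ppard* was not called (0.07). Of 15 partners of PGC-1 coactivators 3 fell, *Sirt3* by 0.36, *Esrra* by 0.21 and *Gabpa* by 0.15, and 0 rose. Of 21 citrate cycle genes 16 fell and 0 rose, at a median of -0.27, *Idh3a* by 0.49 among them. In lipid synthesis 7 of 21 rose and 4 fell: *Acacb*, the carboxylase that restrains β-oxidation, fell from 1.71, 1.82 and 2.04 CPM to 0.79, 0.42 and 0.64 CPM (-1.60, SE 0.22), *Acly*, which makes cytosolic acetyl-CoA, from 573, 534 and 563 CPM to 387, 365 and 403 CPM (-0.53, SE 0.05), and *Acsl1* rose by 0.51. Cholesterol synthesis changed little, 2 of 24 higher and 3 lower. Of 13 LXR targets 3 rose and 5 fell, with the exporters *Abcg1* (-0.49) and *Abca1* (0.27) apart. Antioxidant genes of the NRF2 group rose in 13 of 28 cases and fell in 0. *Prdx6* rose from 171, 188 and 162 CPM to 293, 306 and 298 CPM (0.79, SE 0.09), *Nqo1* from 36.4, 40.0 and 39.7 CPM to 61.9, 63.1 and 63.0 CPM (0.69, SE 0.05, adjusted p = 1.3e-07), *Prdx1* by 0.62, the cystine importer *Slc7a11* by 0.60 and *Gclc*, which limits glutathione synthesis, by 0.51.

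Other metabolic and stress lists had calls in both directions or few. The ATF4 list had 7 of 22 higher and 1 lower, with *Asns* at 4.29, 4.01 and 3.85 CPM against 6.36, 6.10 and 6.43 CPM (0.64, SE 0.10) and *Mthfd2* at 0.43. Heat shock and unfolded protein genes had 5 of 19 higher and 0 lower, among them *Hspa5* (BiP), from 326, 347 and 356 CPM to 410, 500 and 502 CPM (0.46, SE 0.07). Hypoxia targets had 1 higher, *Hif1a* itself (0.37), and 3 of 21 lower, of which *Epas1* fell by 1.12. Autophagy regulators had 1 of 23 higher and 5 lower, *Tfeb* by 0.37 and *Ulk1* by 0.33. Iron genes had 8 of 18 higher and 3 lower, led by *Heph* (2.03, below 1 CPM), with *Trf* at 0.37 and *Hfe* falling by 0.73. Inflammasome genes had 7 of 21 higher and 5 lower, and eicosanoid genes 2 of 18 higher and 3 lower with *Tbxas1* falling by 0.43. Solute carriers outside mitochondria rose in 40 of 190 cases and fell in 24. *Slco4a1* rose from 22.9, 31.1 and 31.8 CPM to 71.0, 80.6 and 78.3 CPM (1.42, SE 0.11, adjusted p = 2.3e-07). The arginine importer *Slc7a2* overlapped at 2240 to 2816 CPM against 2209 to 2606 CPM. ABC transporters had 6 of 36 higher and 9 lower, including *Abcg3* (-1.23) and *Abcg2* (0.78). V-ATPase subunits had 7 of 19 higher and 1 lower, potassium channels 7 of 26 and 2, with *Kcnn3* at -0.70, purinergic and TRP receptors 5 of 24 and 3, and adhesion and orphan receptors 13 of 57 and 7, with *Gpr176* at 1.34. Some of these counts rested on single libraries: inflammasome rises went from 7 to 3 without sh*Ppargc1b* replicate 2 and to 4 without shControl replicate 3, iron rises from 8 to 4 without shControl replicate 1 and to 5 without sh*Ppargc1b* replicate 3, and potassium channel rises from 7 to 4 without shControl replicate 2. V-ATPase rises went from 7 to 4 without shControl replicate 2 or sh*Ppargc1b* replicate 2 or 3. S100 proteins had 2 of 9 higher and 3 lower (*S100a6* at -0.52), annexins 3 of 9 and 3, and galectins 3 of 7 and 0.

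Ribosomal proteins, replication factors and histones had few calls. Cytosolic ribosomal proteins had 1 of 85 higher and 1 lower, mitochondrial ribosomal proteins 4 of 77 and 8, and replication factors 3 of 36 and 0. Histones had 1 of 69 higher and 3 lower, and zinc finger proteins 23 of 347 and 28, each share below that of all genes. Single libraries moved these counts: without sh*Ppargc1b* replicate 3, 15 histones and 6 replication factors were lower, 3 replication factors were lower without shControl replicate 2, and 5 cytosolic ribosomal proteins were higher without sh*Ppargc1b* replicate 1. Mitochondrial carriers fell in 11 of 40 cases and rose in 2, with the phosphate carrier *Slc25a3* at 185, 179 and 193 CPM against 144, 150 and 156 CPM (-0.30, SE 0.04). Without single libraries the carrier falls went down to 5, the falls of mitochondrial ribosomal proteins to 2 and their rises to 0. Rises of replication factors went down to 1, and the zinc finger rises and falls to 13 and 15. Kinesins and centromere genes had 3 of 70 higher and 14 lower at a median of -0.34. That count of falls went from 9, without shControl replicate 1 or 3 or sh*Ppargc1b* replicate 2, to 29 without sh*Ppargc1b* replicate 3. The neuronal kinesins moved apart, *Kif1a* rising from 9.90, 6.73 and 8.03 CPM to 27.2, 21.6 and 25.5 CPM (1.59, SE 0.13, adjusted p = 4.3e-07) and *Kif5a* falling from 2.40, 2.95 and 3.10 CPM to 0.64, 0.60 and 0.76 CPM (-2.07, SE 0.23, adjusted p = 1.0e-05). By gene class, 29.0% of protein-coding genes were called, 16.6% of lincRNAs and 3.87% of processed pseudogenes.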

How the data were processed

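Trimming, alignment and counting were done by the authors, who deposited raw counts of reads per gene. The submitters' processing notes name Trim Galore 0.6.0, STAR 2.7.8a and the builds GRCm38 and mm10, while the study's methods name another STAR version, so the version is uncertain. STAR's gene counts leave out reads that map to several places, which affects near-identical genes, and the strand setting is not given in the sources used here, so overlapping antisense genes cannot be told apart. Libraries were made from total RNA after ribosomal RNA depletion.

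From these counts edgeR 4.0.16 (R 4.3.3) was run with TMM scaling and quasi-likelihood F-tests on all 12 libraries, with 1 mean for each of 4 groups, after its filter on low counts (a minimum count of 10 and a total of 15). This left 18228 of 43864 genes with a count. P-values were adjusted by Benjamini-Hochberg over all of them, with a threshold of 0.05. CPM were scaled by TMM. The difference between treatments was a contrast of the same fit. Alternatives were DESeq2 1.42.0, other scalings, no filter, the 6 libraries alone, a fold limit and leaving out each unstimulated library. Leaving out each IFN-β library, for the difference between treatments, was added after seeing the data. The fit was tested on simulated data.

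The comparison, gene lists and promoter letters were chosen with earlier results of these data known. Text genes are *Ppargc1b*, the 15 top rises and 15 top falls among called, non-overlapping genes with a mean log2 CPM of at least 3, up to 6 called members with the largest change and the 2 most abundant members of each list, all members of short lists, markers, and 5 genes by the difference between treatments. *Gbp5*, *H2-K2*, *Ikbke*, *Irgm1*, *Nlrc5*, *Oas1c*, *Ppard*, *Serpinb6a*, *Tap1*, *Timp2*, *Thy1*, *Snap25* and *Sgce* were chosen after their values were seen. Gene positions are from GENCODE on GRCm38, and promoter windows from RefSeq on GRCm38.p6, matched by symbol for 10399 of 13086 protein-coding genes tested.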

Additional observations from a re-analysis of the deposited data

Results flagged for a closer look

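The genes below had a knockdown effect that differed between IFN-β-treated and unstimulated cells in edgeR's test of that difference. All values are log2, the effect with IFN-β minus the effect without. The differences were negative for *Il12rb1* (-1.49), *Flt4* (-1.35), *Apol9b* (-1.25), *Heatr9* (-1.11), *Ccl5* (-0.85), *Ifi44* (-0.85), *Tnfsf4* (-0.80), *Cd40* (-0.77), *Gbp5* (-0.66), *Slamf7* (-0.54), *Bst2* (-0.50), *Tnf* (-0.46), *Nlrc5* (-0.40), *Irgm1* (-0.38) and *Tap1* (-0.38). They were positive for *Etl4* (1.08) and *Fabp4* (0.49). For *Tnfsf4* the knockdown raised the level in both treatments, by 1.79 without and 0.99 with IFN-β. Many of these calls rested on single libraries: 7 of the 17, *Apol9b*, *Bst2*, *Ccl5*, *Gbp5*, *Ifi44*, *Slamf7* and *Tnfsf4*, passed under every alternative tried, and 10 lost the call under at least 1 of them without changing sign. Of the 17, 10 lost it without shControl replicate 3, 9 without shControl replicate 1, 8 each without sh*Ppargc1b* replicate 2, sh*Ppargc1b* replicate 3 and IFN-β shControl replicate 2, and 5 with library totals. With 3 libraries a group, single libraries were not tested for standing apart.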

How the results depend on the processing

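The effect of the knockdown in unstimulated cells was called for 4295 genes, and between 3332 and 3966 without any 1 unstimulated library, 4426 by DESeq2, 4295 with library totals and 3970 from the 6 unstimulated libraries alone. DESeq2 shared 4227 of these genes and library totals 4131, and no shared call changed sign under any of these alternatives. A limit of 2-fold left 644 genes, 478 higher and 166 lower, and put *Ppargc1b* itself (-0.83) outside it. The difference between treatments depended more on the processing: its 133 genes, 11 positive and 122 negative, became 449 (84 and 365) by DESeq2, 84 (17 and 67) with library totals and 525 (103 and 422) with all genes of at least 1 count. Leaving out 1 unstimulated library gave 36 to 150 genes, the lowest without shControl replicate 3, and 61, 63 and 59 genes without shControl replicate 1, sh*Ppargc1b* replicate 2 and sh*Ppargc1b* replicate 3. Leaving out 1 IFN-β library, tried after seeing the data, gave 61 without shControl replicate 2, 76 without shControl replicate 3, 77 without sh*Ppargc1b* replicate 3 and 271 without sh*Ppargc1b* replicate 2. Over all 12 libraries 4 to 56 were positive and 32 to 215 negative. The cause was not tested. Of 267 called genes named in the text, 246 kept the call under all of these alternatives except the fold limit, and 21 lost it under at least 1 of them without changing sign: *Abca1*, *Bmp8a*, *Ccl9*, *Ccr6*, *Cdh17*, *Chil3*, *Ctse*, *Ctss*, *Ereg*, *Esrra*, *Fcrlb*, *Fstl3*, *Gabpa*, *H2-K2*, *Hdc*, *Ltb*, *Marco*, *Socs2*, *Stfa2*, *Tlr4* and *Tnfsf18*. Of 22 named genes that were not called, 7 gained a call under at least 1 alternative: *Cd74*, *Elane*, *H2-Aa*, *Ifit2*, *Retnlg*, *Rsad2* and *Tlr9*. Small list counts also moved without single unstimulated libraries: falls of hypoxia targets, 3, ranged from 1 to 6, those of interferon regulatory factors and STATs, 3, from 1 to 3, those of scavenger receptors, 2, from 0 to 1, rises of Krüppel-like factors, 3, and of LXR targets, 3, from 1 to 3, rises of S100 proteins, 2, from 0 to 1, and falls of proliferation markers, 2, from 0 to 6. No paired analysis was run: the labels give no replicate numbers, and the order of the libraries was not taken as a pairing. With 3 libraries a group, genes below about 1 CPM carried large standard errors.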

Other observations

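Large changes also lay at low counts, below the level used for the ranking. *Thy1*, a surface glycoprotein of T cells and neurons, stood at 0.577, 0.704 and 0.745 CPM in shControl and at 6.85, 5.37 and 5.15 CPM in sh*Ppargc1b* libraries (3.09, SE 0.15, edgeR adjusted p = 4.7e-09), and the change with IFN-β was 2.97. *Snap25*, a synaptic SNARE protein, stood at 0.367, 0.115 and 0.124 CPM against 2.07, 2.11 and 2.08 CPM (3.36, SE 0.44, edgeR adjusted p = 4.3e-05). *Sgce*, ε-sarcoglycan, stood at 0.035, 0.115 and 0.142 CPM against 1.23, 1.07 and 0.704 CPM (3.32, SE 0.43, edgeR adjusted p = 4.1e-05). In all 3 the groups were apart. The lymphocyte marker list, in which 0 of 3 tested genes were called, summed to 0.266 to 0.49 CPM in shControl and 0.307 to 0.751 CPM in sh*Ppargc1b* libraries.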
